A study of Mus musculus with 48 samples.

Results

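The clustered protocadherins are cell adhesion proteins of neurons that are encoded by 3 neighbouring gene clusters, alpha, beta and gamma, on mouse chromosome 18. The members were the protein-coding genes whose symbols begin with Pcdha, Pcdhb or Pcdhg followed by an isoform number or letter, and 58 of the 56748 genes in the deposited count table met this rule. They comprised 14 alpha, 22 beta and 22 gamma genes. In the coordinates of the deposited table (mm39) the alpha members lay between 37063237 and 37320714, the beta members between 37397991 and 37657532 and the gamma members between 37794846 and 37974926, all on the plus strand.

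Each alpha or gamma member has its own promoter and a large first exon that encodes the extracellular and transmembrane part, and this exon is spliced to constant exons shared by the whole cluster, whereas beta members carry no constant exons. Most isoforms are chosen by a single neuron in a near-random, promoter-by-promoter manner that depends on DNA methylation, CTCF and cohesin, while the C-type isoforms (Pcdhac1, Pcdhac2, Pcdhgc3, Pcdhgc4 and Pcdhgc5) at the ends of the alpha and gamma clusters are expressed more uniformly within a cell type. On the cell surface the proteins bind identical isoforms on a neighbouring membrane, which lets branches of one neuron recognise each other, for example in the dendrites of Purkinje cells.

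Polyadenylated RNA was sequenced from cerebellum, dorsal hippocampus, ventral hippocampus and medial prefrontal cortex of female and male mice aged 16 weeks. The mice carried the genotype label 129/Sv-Cyp2e1tm1Gonz/J, a line in which the ethanol-oxidising cytochrome P450 gene Cyp2e1 is targeted in the whole body (KO), or 129S1/SvImJ (WT). Sex, label and region formed 16 groups with 3 libraries each, so each region had 12 libraries, 6 of each label. The labels name no treatment, do not say which libraries share an animal, and join a difference in the strain's name to the difference at Cyp2e1, so that allele and background cannot be told apart.

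Cyp2e1 went against the labels: it had 34 to 111 counts in the 24 libraries labelled KO and 0 to 8 counts in the 24 labelled WT. Directions below are therefore those of the labels. Library totals ran from 14559295 to 25863414 counts, of which 7103 to 13509 fell on the 58 members. Markers of forebrain excitatory neurons set the cerebellum apart, with summed levels of 353 to 1331 CPM (CPM is the count of a gene scaled to a common library size with TMM factors) in cerebellar libraries and at least 3994 CPM in each of the other libraries. Cerebellar granule cell markers were less clear. Their 12 genes summed to 371 to 8380 CPM in the cerebellum, and the 3 lowest cerebellar libraries, female WT 1, male WT 2 and male WT 3, had 387, 606 and 371 CPM. The lowest values were 493 CPM in the dorsal and 420 CPM in the ventral hippocampus, and prefrontal libraries had 327 to 417 CPM. Female WT 1 and male WT 3 thus lay below each hippocampal library and within the prefrontal range. Conversely 5 hippocampal libraries were high in these markers, with 2695 CPM in dorsal male KO 1 and 860, 4381, 4686 and 2916 CPM in ventral female KO 1, male KO 3, male WT 1 and male WT 2. Comparisons that span regions, and those between the labels in the cerebellum and the dorsal hippocampus, are also given without those of these 8 libraries that they hold. The label difference in the ventral hippocampus is not given without them. Comparisons of the sexes and the sex by label differences were not refitted without them together. Markers of serotonergic neurons, 5 genes, were uneven in the cerebellum as well. They summed to 4.47 to 373 CPM in KO-labelled and 51.6 to 641 CPM in WT-labelled cerebellar libraries. In the dorsal hippocampus, ventral hippocampus and prefrontal cortex they reached at most 45.9, 159 and 39.6 CPM. Their part in the comparisons below was not tested. Because the labels' extraction protocol speaks of liver, 9 liver genes were examined too, and 3 to 6 of them were under 0.1 CPM in every library of a region. Their sum reached 1276 CPM in a cerebellar, 854 in a dorsal, 509 in a ventral and 49.2 CPM in a prefrontal library, almost all of it from Ttr, which the choroid plexus also expresses, and the other 8 genes together stayed at or below 0.851 CPM in each library.

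Reads counted for a member could come from bases that other genes share. In GENCODE M21, whose exon bases matched the deposited length of 58 of the 58 members, each alpha member shared 2860 to 2864 bases with other alpha members and each gamma member 2116 to 3157 bases with other gamma members, chiefly in the constant exons. Beta members shared 0 to 455 bases. Reads on shared exons cannot have been counted in full for each member, since 3 members in the middle of clusters stayed under 10 counts in each library: Pcdha4 had 0 to 7 counts, Pcdha11 had 0 to 5 and Pcdhga10 had 0 to 6. For Pcdha4, 2410 bases were shared with another gene model on the same strand, and for Pcdhga10 none of the bases that were its own lay clear of an antisense exon, so the low values of these members are uncertain. Of the 58 members, 54 had a count above 0 in all 48 libraries.

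The C-type isoforms were the most abundant members. To compare genes, the mean CPM over the 48 libraries was divided by the kilobases of exon that a gene did not share, and on this scale the 4 highest members were Pcdhgc5 at 15.4, Pcdhac2 at 13.1, Pcdhgc3 at 10.3 and Pcdhgc4 at 6.29 CPM per kilobase. Bases that face an antisense exon were counted as own here. Of 3380 own bases of Pcdhgc3, 1821 lay clear of antisense exons, and of 2637 of Pcdhga11 (3.83 CPM per kilobase), 1256 did. For Pcdhgc5, Pcdhac2 and Pcdhgc4 all did. The order, and the place of Pcdhgc4 above Pcdhga11, thus depends on this choice. Pcdhgc5 has been linked to inhibitory synapses, Pcdhac2 to the spacing of serotonergic axons, Pcdhgc3 to dendrite branching in cortical neurons, and Pcdhgc4 to the survival of neurons, all in rodents. In the deposited table (mm39, chromosome 18) Pcdhac1 (ENSMUSG00000103255) spans 37223066 to 37320710, Pcdhac2 (ENSMUSG00000102697) 37276556 to 37320710, Pcdhgc3 (ENSMUSG00000102918) 37939417 to 37974926, Pcdhgc4 (ENSMUSG00000023036) 37948132 to 37974926 and Pcdhgc5 (ENSMUSG00000102543) 37952566 to 37974926. The shared ends hold the constant exons of each cluster. The fifth C-type member, Pcdhac1, was much lower, with a mean of 3.79 CPM. As a share of the counts of a cluster, Pcdhac2 took 49.6% of alpha and Pcdhgc5 took 25.2% of gamma.

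The other members spread over a wide range within each cluster. In the alpha cluster the highest numbered isoforms were Pcdha12 with 7.97 CPM and Pcdha9 with 5.63 CPM, and the lowest were Pcdha11 with 0.051 and Pcdha4 with 0.103 CPM. In the beta cluster Pcdhb17, Pcdhb22 and Pcdhb20 were highest at 18.3, 17.7 and 14.4 CPM, and Pcdhb1 and Pcdhb12 were lowest at 0.243 and 2.18 CPM. In the gamma cluster Pcdhga10 and Pcdhga1 were lowest at 0.0429 and 3.31 CPM. Per kilobase of own exon the median was 1.38 CPM over 10 numbered alpha members, 1.74 over the 22 beta members and 3.04 over 18 gamma A and B members, leaving out the 3 members near 0.

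**Figure D1:**
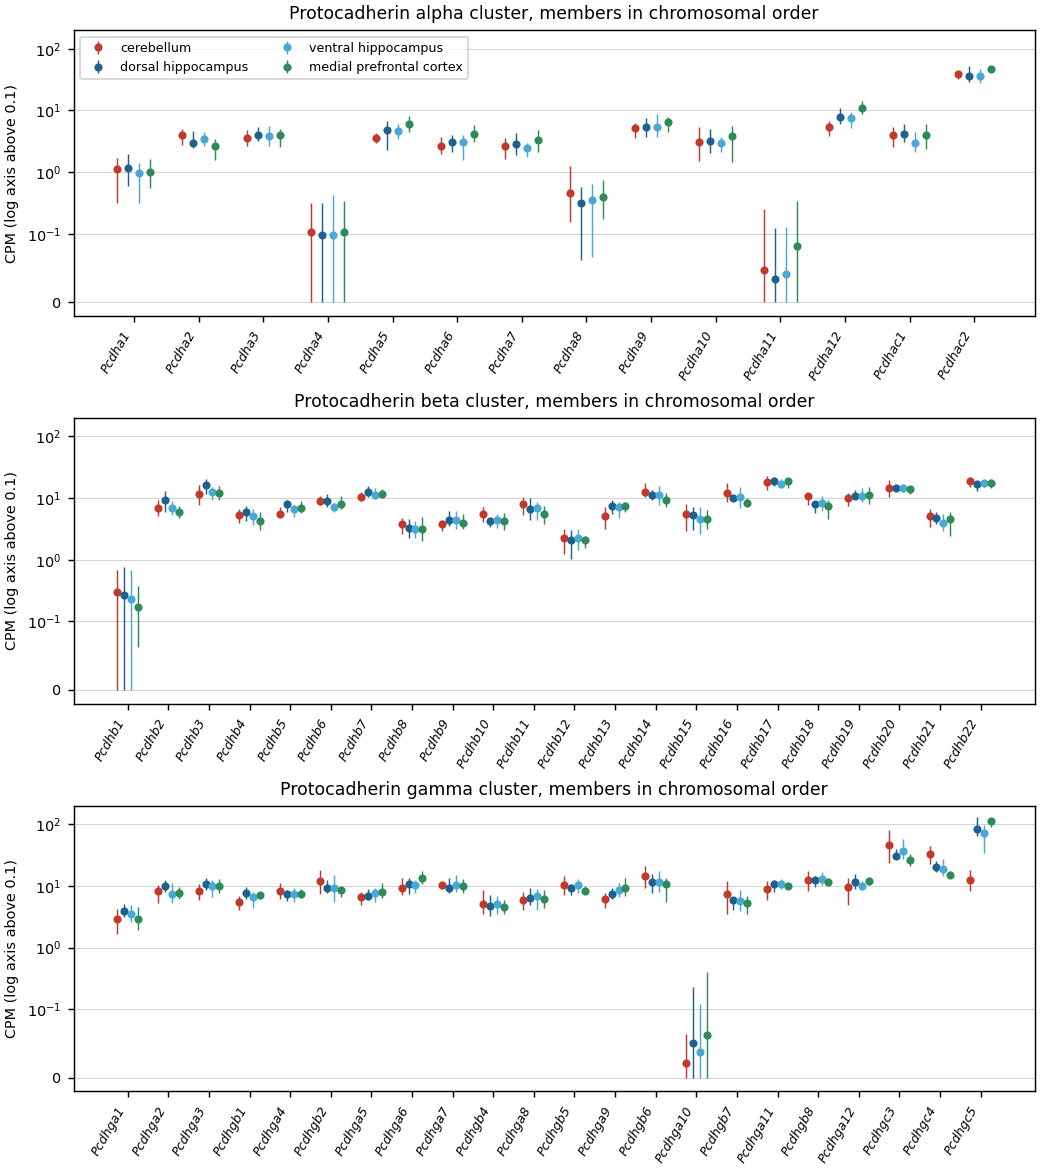
Level of each of the 58 members in the 4 regions, in CPM (symmetrical log axis, linear below 0.1). Points are means of 12 libraries, lines span the lowest to the highest library, and genes run in chromosomal order. Pcdhac2, Pcdhgc3, Pcdhgc4 and Pcdhgc5 stand at the right ends of the alpha and gamma clusters, and the cerebellar point of Pcdhgc5, at 12.5 CPM, lies far below its points in the other regions.

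In proportion, the sum over all members differed less between regions than the alpha and gamma sums. The 58 members together reached 504 ± 58.4 CPM in the cerebellum (SD, n = 12 libraries here and in the following means by region), 558 ± 42.3 in the dorsal hippocampus, 533 ± 46.8 in the ventral hippocampus and 573 ± 40.2 in the medial prefrontal cortex. The alpha sum was highest in the prefrontal cortex, at 93.3 ± 7.64 CPM, against 74.5 to 76.5 CPM in the other regions. Beta sums ran from 172 ± 15.1 CPM in the prefrontal cortex to 190 ± 9.43 CPM in the dorsal hippocampus. The gamma sum was lowest in the cerebellum, at 243 ± 40.7 CPM, and the gamma members other than the C-type isoforms summed to 152 to 155 CPM in each region, so the lower cerebellar sum lay in the C-type isoforms.

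Cerebellum and forebrain differed chiefly in which gamma C-type isoform was used. Pcdhgc5 had 8.3 to 18.2 CPM in the 12 cerebellar libraries, with a median of 12.6, and 33.6 to 131 CPM in the 36 forebrain libraries, with a median of 86.9. No cerebellar library reached the lowest forebrain library. The fitted log2 change was -2.83 (SE 0.10, edgeR quasi-likelihood test, adjusted p = 6.12e-24), where forebrain is the mean of the other 3 regions. Pcdhgc4 went the other way, with 22.5, 33.6 and 44.6 CPM as the lowest, median and highest cerebellar values and 13.4, 17.2 and 27.1 CPM in the forebrain. Its groups overlapped between 22.5 and 27.1 CPM, and its log2 change was 0.88 (SE 0.05, adjusted p = 7.98e-17). Without the 8 libraries with unusual granule markers the changes were -2.92 for Pcdhgc5 and 0.81 for Pcdhgc4. The Pcdhgc5 to Pcdhgc4 ratio was 0.383 ± 0.0833 in the cerebellum, 4.28 ± 1.14 and 4.08 ± 1.34 in the dorsal and ventral hippocampus and 7.49 ± 0.975 in the prefrontal cortex. Since these are bulk tissues, fewer cells that express a gene and less RNA per cell cannot be told apart.

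Pcdhgc3 was higher in the cerebellum by 0.50 on the log2 scale (SE 0.10, adjusted p = 6.63e-05), but its cerebellar libraries were scattered between 23.3 and 81.4 CPM and overlapped the forebrain range of 20.9 to 58.7 CPM. The change was 0.78 without the 8 libraries with unusual granule markers, 0.82 in the KO-labelled libraries alone and 0.19 in the WT-labelled libraries alone (adjusted p = 0.274). The alpha C-type isoforms did not pass the test. Pcdhac2 had 39.1 ± 3.35 CPM in the cerebellum and 39.7 ± 7.45 CPM in the forebrain, and its log2 change was -0.01 (SE 0.05, adjusted p = 0.908). For Pcdhac1 the change was 0.13 (SE 0.10, adjusted p = 0.253).

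**Figure D2:**
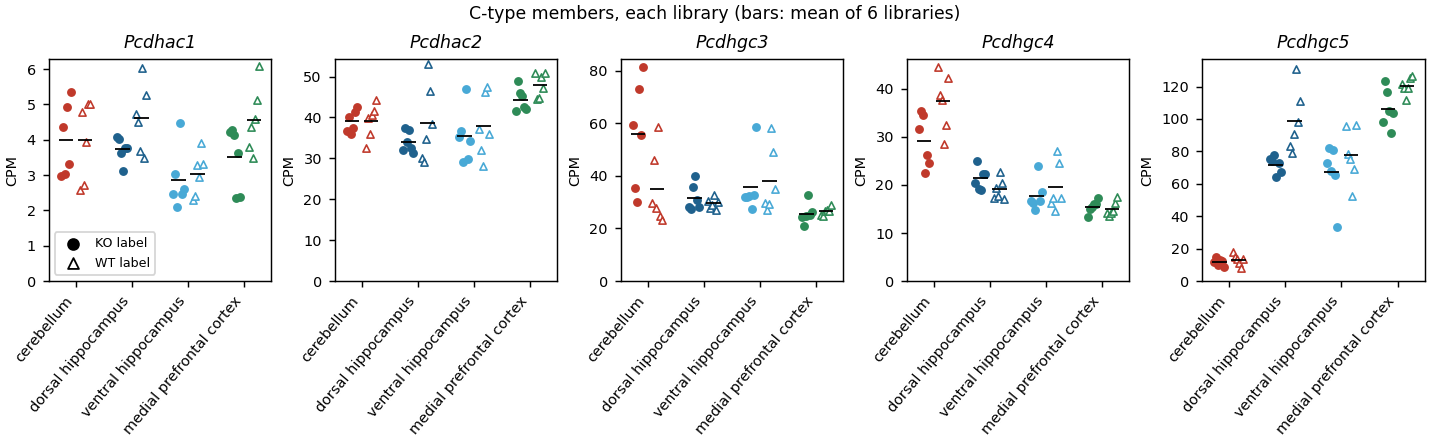
Level of the 5 C-type members in every library, in CPM on axes that start at 0, by region. Filled circles are KO-labelled and open triangles WT-labelled libraries, and bars are means of 6 libraries. Pcdhgc5 is below 20 CPM in each cerebellar library, Pcdhgc4 is highest in the cerebellum, and Pcdhgc5 in the dorsal hippocampus is lower in each KO-labelled than in each WT-labelled library.

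Across all members, 32 of the 55 tested changed between cerebellum and forebrain, 16 higher and 16 lower in the cerebellum. This was 58.2% of the members, against 66.3% of all 19183 genes tested (34.9% higher and 31.4% lower), so a share this size is near the background of these regions. Their median log2 change was 0.00 and that of all genes 0.03. Pcdha4, Pcdha11 and Pcdhga10 fell below the filter on low counts and were not tested in any comparison. Cell type markers moved with the regions: 10 of 12 granule cell and 12 of 12 Purkinje cell markers were higher in the cerebellum and 10 of 10 markers of excitatory forebrain neurons were lower, and their part in the members' changes was not tested.

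Outside the C-type group the changes were modest. In the alpha cluster 3 numbered isoforms fell in the cerebellum and 1 rose. The largest fall was that of Pcdha12, from 8.85 ± 2.13 CPM in the forebrain to 5.35 ± 0.915 CPM (log2 change -0.71, SE 0.09, adjusted p = 6.21e-09). Pcdha5 fell by 0.48 on the log2 scale and Pcdha2 rose by 0.41. In the beta cluster 8 members rose and 4 fell, with Pcdhb18 up by 0.45, Pcdhb10 and Pcdhb16 up by 0.35 each, Pcdhb13 at -0.50 and Pcdhb5 at -0.37. Their ranges overlapped between cerebellum and forebrain in each case.

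The A and B types of the gamma cluster, which alternate along the chromosome and differ in the sequence of their variable exons, differed in their counts. Of 11 gamma A members tested, 7 fell in the cerebellum and 1 rose, with a median log2 change of -0.23, and Pcdhga9 fell by 0.42 (SE 0.06, adjusted p = 3.09e-07). Of 7 gamma B members, 4 rose and 1 fell, with a median of 0.17. Of all genes, 34.9% were higher and 31.4% lower in the cerebellum. The gamma A count depended on the libraries: without the 8 libraries 3 fell and 0 rose (median -0.11), and in the KO-labelled libraries alone 1 fell and 1 rose (median -0.05). Among those that lost their call without the 8 libraries, Pcdhga11 was at -0.11 (adjusted p = 0.197) and Pcdhga12 at -0.06 (adjusted p = 0.544), and in the KO-labelled libraries alone both estimates turned positive, at 0.048 and 0.016. The gamma B counts were 4 higher and 1 lower without the 8 libraries, 6 higher and 1 lower in the KO-labelled and 0 higher and 1 lower in the WT-labelled libraries. In the WT-labelled libraries alone 6 of 11 gamma A members fell and 0 rose (median -0.38), and the gamma B median was 0.06. The summed A level over the summed B level was 1.29 ± 0.146 in the cerebellum, 1.57 ± 0.111 in the dorsal hippocampus, 1.53 ± 0.189 in the ventral hippocampus and 1.74 ± 0.117 in the prefrontal cortex. The difference between the types was not tested.

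Each label was also examined alone. In the WT-labelled libraries 20 members passed, 5 higher and 15 lower in the cerebellum, and in the KO-labelled libraries 26 passed, 18 higher and 8 lower. Passing in both with the same sign were 9 members: Pcdha5, Pcdha12, Pcdhb5, Pcdhb10, Pcdhb18, Pcdhga9, Pcdhgb1, Pcdhgc4 and Pcdhgc5. Pcdhb20 passed in both with opposite signs, at -0.25 in the WT-labelled and 0.22 in the KO-labelled libraries. Without the 8 libraries with unusual granule markers 27 members passed, 15 higher and 12 lower, of which 25 were among the 32.

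**Figure D3:**
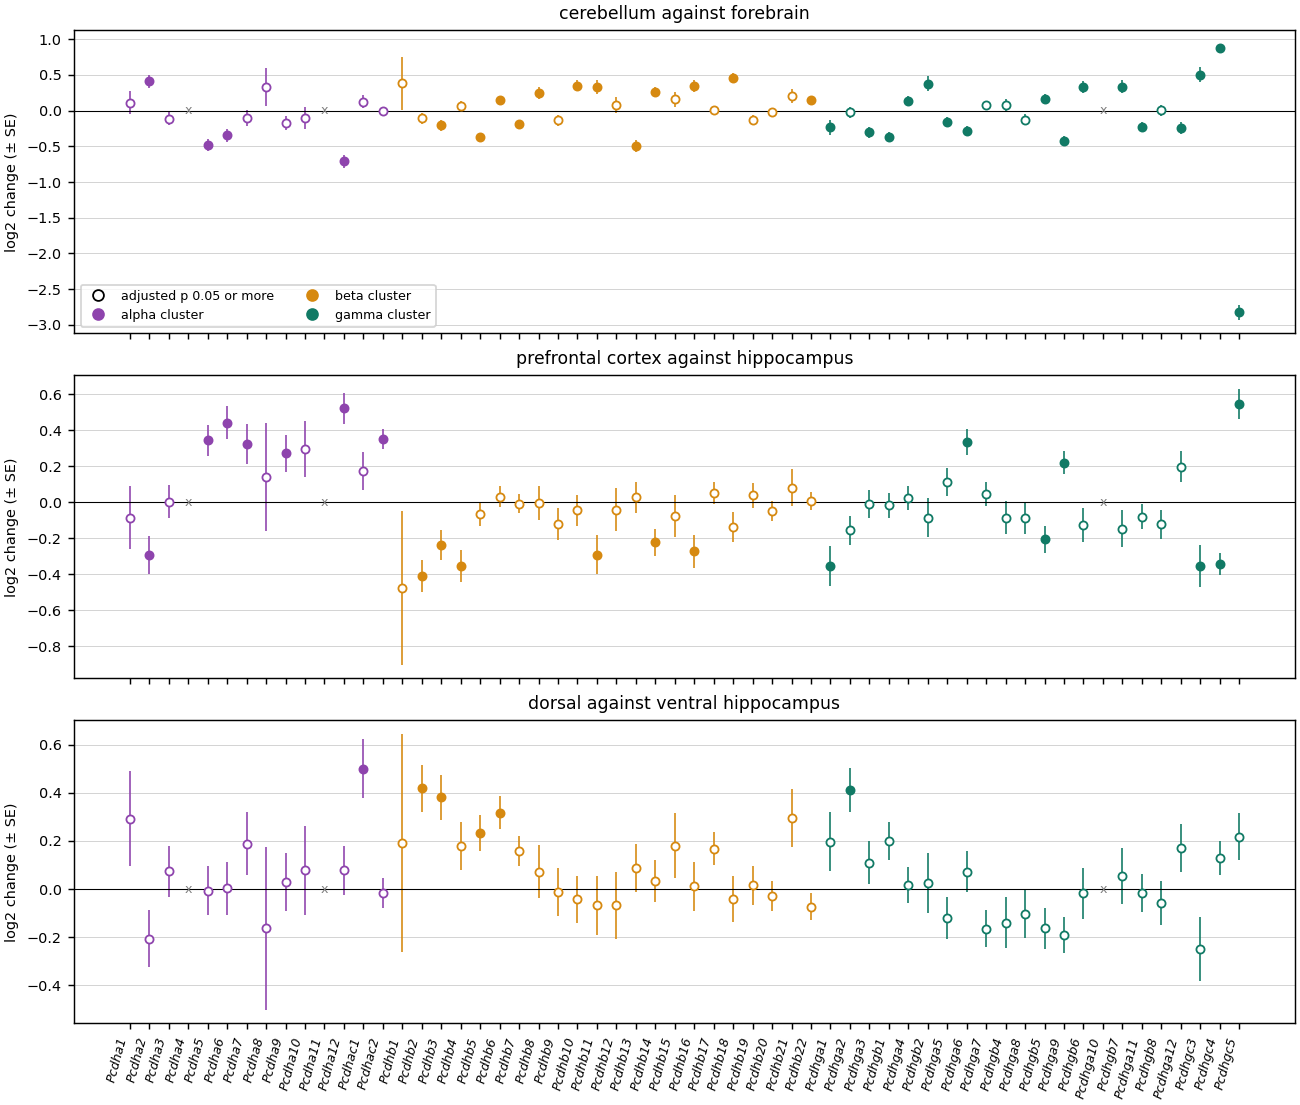
Fitted log2 change of each member in the 3 comparisons between regions, with lines of 1 SE, in chromosomal order from alpha to gamma. Filled points passed an adjusted p of 0.05, open points did not, and grey crosses were not tested. Pcdhgc5 lies at -2.83 in the upper panel, numbered alpha members lie mostly above 0 in the middle panel, and the 6 members passing in the lower panel lie above 0.

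Within the forebrain, the prefrontal cortex and the hippocampus (mean of its dorsal and ventral parts) differed in 20 of 55 members, 9 higher and 11 lower in the prefrontal cortex. The share of 36.4% was close to the 33.8% of all genes (15.9% higher and 17.9% lower). Among the C-type isoforms Pcdhgc5 had 91.5, 118 and 126 CPM as the lowest, median and highest prefrontal values and 33.6, 76.7 and 131 CPM in the hippocampus. The prefrontal values sat near the top of the hippocampal range, and the log2 change was 0.54 (SE 0.08, adjusted p = 2.58e-06). Pcdhac2 rose by 0.35 (SE 0.05, adjusted p = 2.97e-06), from 36.5 ± 6.79 to 46.2 ± 3.37 CPM. Pcdhgc4 and Pcdhgc3 were lower in the prefrontal cortex, with log2 changes of -0.34 (SE 0.06, adjusted p = 3.67e-05) and -0.36 (SE 0.12, adjusted p = 0.0162), and Pcdhgc3 was at -0.23 without the 8 libraries. Without them Pcdhgc5 was at 0.45, Pcdhac2 at 0.39 and Pcdhgc4 at -0.30, and 18 members passed, 17 of them among the 20.

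Numbered alpha members leaned towards the prefrontal cortex in this comparison, and the shift of the beta members was small. The size of both depended on the libraries. Of the 10 numbered alpha members tested, 5 were higher in the prefrontal cortex and 1 was lower, with a median log2 change of 0.28. Pcdha12 had 8.73 to 14.1 CPM in the prefrontal cortex and 5.23 to 10.8 CPM in the hippocampus, a log2 change of 0.52 (SE 0.09, adjusted p = 8.69e-06), followed by Pcdha6 at 0.44 and Pcdha5 at 0.34. Of the 22 beta members 6 were lower and 0 higher, with a median of -0.06, led by Pcdhb2 at -0.41 (SE 0.09, adjusted p = 0.000302), Pcdhb4 at -0.35 and Pcdhb16 at -0.27. Of all genes, 17.9% were lower and 15.9% higher. Without the 8 libraries 3 beta members were lower and 0 higher, while the numbered alpha counts were again 5 and 1. The beta median was then -0.0015 and the numbered alpha median 0.36. In the WT-labelled libraries alone 1 of 21 beta members was lower and 0 higher (median -0.13). In the KO-labelled libraries alone 3 of 21 were lower and 0 higher (median -0.006). Of the 10 numbered alpha members 4 were higher and 0 lower in the WT-labelled libraries alone (median 0.39). In the KO-labelled libraries alone 2 of these 10 were higher and 0 lower (median 0.18). Among the gamma A and B members, 2 rose and 2 fell, with Pcdhga6 at 0.33 and Pcdhga1 at -0.36. The median over all genes was -0.02.

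Of the members, 6 passed both in the WT-labelled and in the KO-labelled libraries alone, where 9 and 10 passed: Pcdha6, Pcdha12, Pcdhac2, Pcdhb2, Pcdhgc4 and Pcdhgc5, each with the same sign. Member medians were -0.08 and 0.004 there, against -0.02 and -0.01 over all genes, whose called shares are not given. Marker lists of cell types moved with this comparison. Of the dentate gyrus markers 6 of 8 were lower and of the striatal markers 9 of 9 were higher in the prefrontal cortex, while 7 of 10 markers of excitatory forebrain neurons were higher and 9 of 12 granule cell markers lower. Their part in the result was not tested.

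Dorsal and ventral hippocampus differed in 6 of 55 members, each higher in the dorsal part, or 10.9% against 16.8% of all genes, of which 9.7% were higher and 7.15% lower in the dorsal part. Pcdhac1 had 3.12, 3.89 and 6.03 CPM as the lowest, median and highest dorsal values and 2.09, 2.79 and 4.48 CPM in the ventral part, and the groups overlapped. Its log2 change was 0.50 (SE 0.12, adjusted p = 0.00362), or 0.49 without the 8 libraries. The others were Pcdhb2 at 0.42, Pcdhga2 at 0.41, Pcdhb3 at 0.38, Pcdhb6 at 0.32 and Pcdhb5 at 0.23, with adjusted p from 0.00122 to 0.0255. Thus 4 of the 6 were beta members near the start of their cluster, and Pcdhga2 lies near the start of the gamma cluster.

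Along the beta cluster, the rank correlation between a member's order on the chromosome and its log2 change was -0.53 for dorsal against ventral hippocampus and 0.53 for prefrontal cortex against hippocampus (Spearman, n = 22 members). For cerebellum against forebrain it was 0.19. Over 10 numbered alpha members the values were 0.62 for prefrontal cortex against hippocampus, 0.13 for dorsal against ventral hippocampus and -0.43 for cerebellum against forebrain. Over 18 gamma A and B members they were 0.08, -0.43 and 0.17 in the same order. Members share libraries and the hippocampal libraries enter both comparisons, so these are descriptions. In the WT-labelled libraries alone 2 members passed the dorsal against ventral comparison and in the KO-labelled libraries 0, while 8 passed without the 8 libraries. Member medians were 0.05 in the WT-labelled and -0.002 in the KO-labelled libraries, against -0.02 and -0.01 over all genes. Shares of all genes called in these fits are not given. Of the oligodendrocyte markers 12 of 12 and of the habenula and thalamus markers 7 of 10 were higher in the dorsal libraries, and their part in the result was not tested.

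Between the labels few members changed. In the cerebellum 2 of 54 members passed, or 3.7% against 7.98% of the 17825 genes tested. Pcdhb20, a beta isoform, had 17.6, 14.1 and 15.8 CPM in the female and 19.4, 17.1 and 16.3 CPM in the male KO-labelled libraries. In the WT-labelled libraries it had 14, 12.4 and 11.4 CPM in females and 14.3, 10.2 and 10.5 CPM in males, so the groups overlapped by a small margin. Its log2 change was 0.46 (SE 0.11, adjusted p = 0.0439).

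Pcdhgc4 was lower in the KO-labelled cerebellar libraries, with 31.6, 35.4 and 34.7 CPM in females and 22.5, 26.3 and 24.5 CPM in males, against 44.6, 38.8 and 37.8 CPM in females and 28.6, 32.5 and 42.4 CPM in males with the WT label. Within each sex the KO-labelled values lay below the WT-labelled ones. The log2 change was -0.37 (SE 0.10, adjusted p = 0.0476). Both calls were fragile: leaving out any library other than male KO 2 or male WT 1 left 0 members called, and leaving out male WT 1 gave 12. The share of all genes called in those fits is not given. With the mean of the granule markers as a covariate the changes were 0.31 for Pcdhb20 and -0.17 for Pcdhgc4, and 0 members passed. Without the 3 cerebellar libraries lowest in granule markers, which are labelled WT, they were 0.35 and -0.21, and again 0 passed. Of the oligodendrocyte markers 9 of 12 were lower in the KO-labelled cerebellar libraries (median log2 change -0.77), while 12 of 12 granule and 11 of 12 Purkinje cell markers had estimates above 0 (medians 1.37 and 1.19) with 0 past the test in edgeR and 1 and 4 under an unadjusted p of 0.05. Their part in the result was not tested beyond the covariate.

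Some members followed granule marker content across the 12 cerebellar libraries, as did many other genes. The relation was examined for 17813 genes, with p-values adjusted over all of them, and 18 of 54 members passed by Pearson's r, 17 positive and 1 negative. The share of 33.3% lay below the 45.2% of all genes, of which 22.3% were positive and 22.9% negative. Pcdhgc3 followed the mean granule marker level with Pearson's r = 0.951 (permutation p = 3e-05, adjusted p = 0.000568) and Spearman's rho = 0.972 (permutation p = 1e-05, the smallest that the permutations can give, adjusted p = 0.000294). The relation was 0.986 within the KO-labelled libraries, 0.935 within the WT-labelled libraries and 0.982 without the 2 libraries farthest from the median. The negative member by Pearson's r was Pcdhgc4, at r = -0.834 (permutation p = 0.00096, adjusted p = 0.00444) and rho = -0.846 (permutation p = 0.00093, adjusted p = 0.00417), with -0.865 within the KO label, -0.67 within the WT label and -0.716 without the 2 farthest libraries. By Spearman's rho Pcdhb5 was negative too, at -0.734 (permutation p = 0.00845, adjusted p = 0.0229), with r = -0.557 (permutation p = 0.0599, adjusted p = 0.11) and -0.376 without the 2 farthest libraries. For Pcdhgc5 r was -0.267 (permutation p = 0.399, adjusted p = 0.501). The granule marker sum was 1250 to 8380 CPM in KO-labelled and 371 to 5724 CPM in WT-labelled cerebellar libraries.

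**Figure D4:**
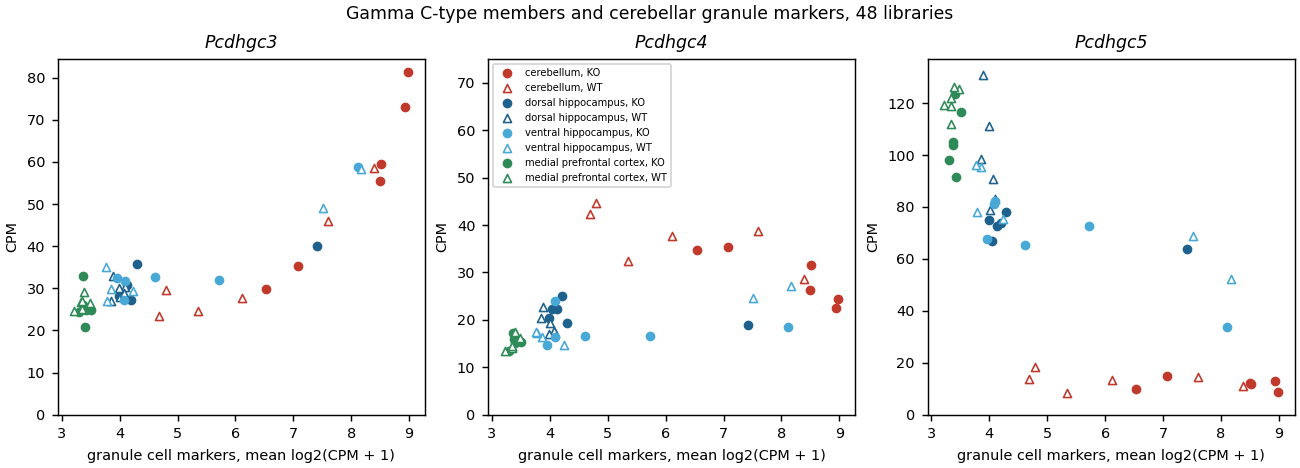
Levels of the gamma C-type members in CPM (axes from 0) against the mean log2(CPM + 1) of 12 granule cell markers in the 48 libraries. Colours are regions, filled circles KO-labelled and open triangles WT-labelled libraries. Pcdhgc3 reaches 81.4 CPM in the cerebellar library with the highest markers, hippocampal libraries high in these markers lie among the cerebellar ones for Pcdhgc3, and Pcdhgc5 stays under 20 CPM in the cerebellum at each marker level.

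Of the 5 hippocampal libraries high in granule markers, 4 also had the highest Pcdhgc3 levels of their region. Pcdhgc3 was at 58.7, 58.4 and 49.1 CPM in ventral male KO 3, male WT 1 and male WT 2 and at 27.1 to 35.1 CPM in the other 9 ventral libraries, among them female KO 1 with 31.9 CPM. Dorsal male KO 1 had 40 CPM, the highest dorsal value. For Pcdhgc5 the lowest ventral values were 33.6 CPM in male KO 3 and 52.3 CPM in male WT 1. Pcdhgc4 was at 18.5, 27.1 and 24.5 CPM in ventral male KO 3, male WT 1 and male WT 2, against 14.6 to 24 CPM in the other ventral libraries.

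In the dorsal hippocampus 1 of 53 members passed, or 1.89% against 0.655% of 17402 genes. Pcdhgc5 had 75.1, 73.9 and 77.9 CPM in the female and 63.9, 72.7 and 67.1 CPM in the male KO-labelled libraries. The WT-labelled libraries had 83, 78.8 and 90.7 CPM in females and 131, 98.3 and 111 CPM in males. The KO-labelled and WT-labelled groups did not overlap, and the WT-labelled males were highest. The log2 change was -0.44 (SE 0.07, adjusted p = 0.00905), between -0.49 and -0.39 with each library left out in turn, and it passed each time. Without dorsal male KO 1 it was -0.43. Fitted together with the other regions, with 1 shared estimate of the spread, the change was -0.45 and did not pass (adjusted p = 0.312). Cell type markers moved with the labels in the dorsal libraries. All 10 markers of excitatory forebrain neurons had estimates below 0 (median -0.23), 8 of them at an unadjusted p under 0.05 and 1 past the adjusted threshold, and they summed to 5840 to 7279 CPM in KO-labelled and 6765 to 9239 CPM in WT-labelled libraries. Dentate gyrus markers had a median of -0.33, with 1 of 8 estimates above 0, 3 under an unadjusted p of 0.05 and 0 past the adjusted threshold in edgeR. They summed to 290 to 429 CPM in KO-labelled and 369 to 475 CPM in WT-labelled libraries. The part of these markers in the result was not tested.

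The estimates for Pcdhgc5 were also below 0 in the other regions, at -0.14 (SE 0.16) in the cerebellum, -0.21 (SE 0.19) in the ventral hippocampus and -0.17 (SE 0.05) in the prefrontal cortex, with adjusted p of 0.547, 1.000 and 0.207. The label difference of Pcdhgc5 was not found to differ between regions (F test, adjusted p = 0.706). Within the dorsal hippocampus it was larger in males by 0.59 on the log2 scale (SE 0.13), which did not pass (adjusted p = 0.157).

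In the medial prefrontal cortex and the ventral hippocampus 0 members passed, with edgeR as fitted region by region with its filter and with DESeq2, where 0.24% and 0.0748% of all genes passed with edgeR. Before adjustment, 3 members in each region had a p under 0.05. The share of all genes under that p is not given, so this count is not read as a result about the members. The smallest p values in the prefrontal cortex were those of Pcdhgc5 and of Pcdhac1, at -0.39 (SE 0.14, adjusted p = 0.251). In the ventral hippocampus they were those of Pcdhb14 at -0.30 (SE 0.11) and Pcdhgb4 at -0.38 (SE 0.15), both with an adjusted p of 1.000.

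**Figure D5:**
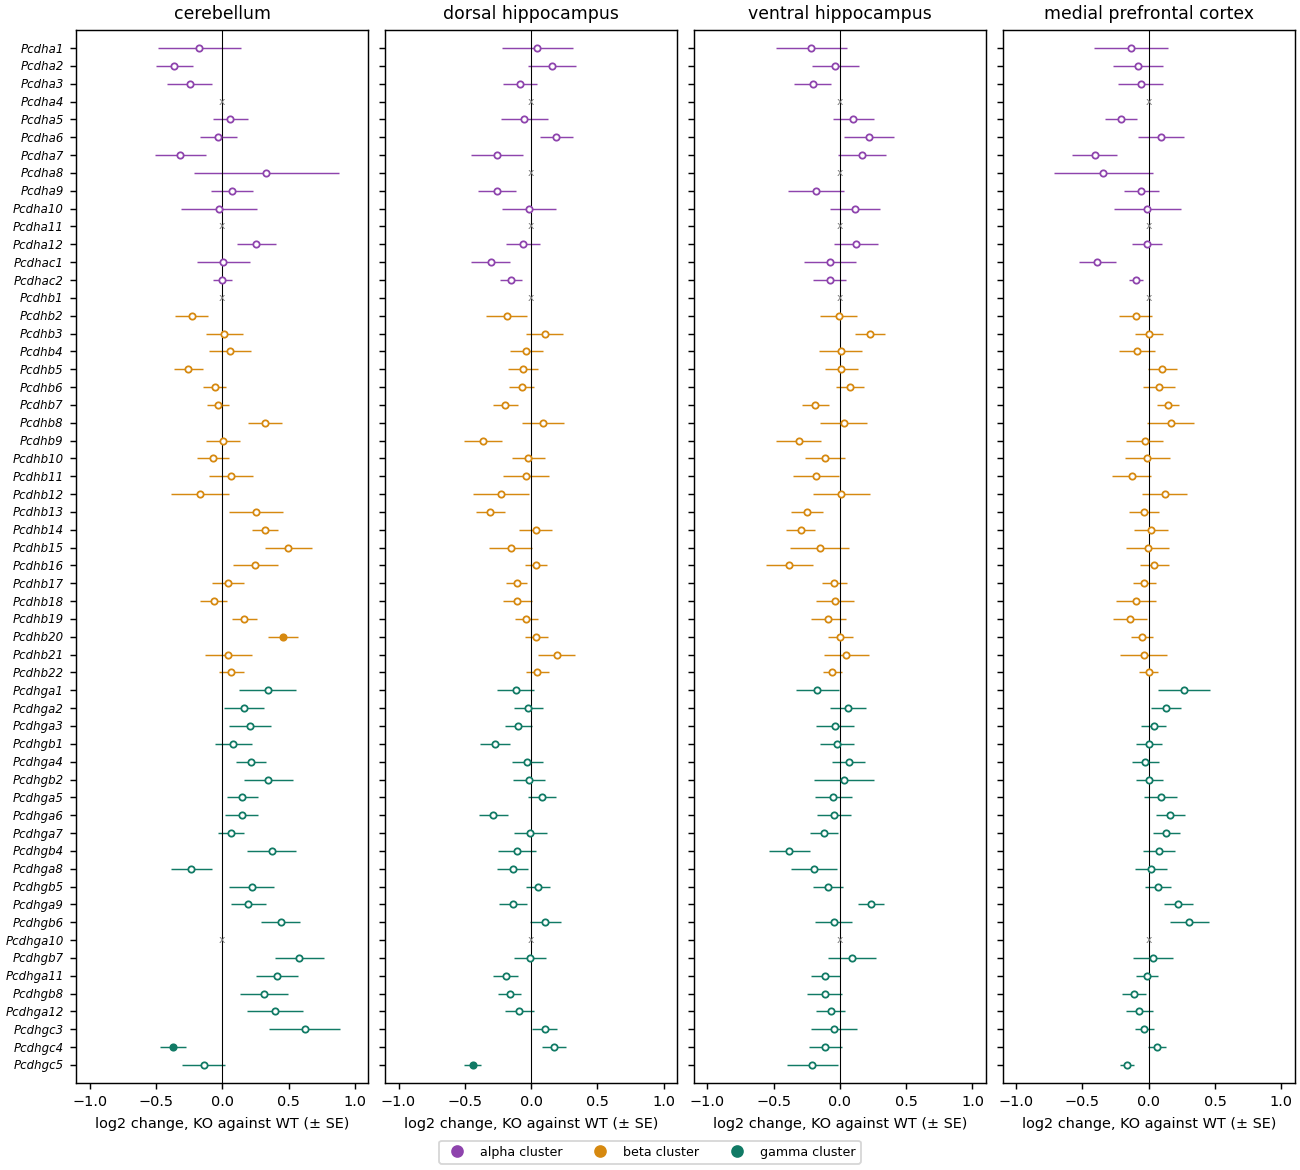
Fitted log2 change of each member between KO-labelled and WT-labelled libraries in the 4 regions, with lines of 1 SE. Filled points passed an adjusted p of 0.05, and grey crosses were not tested. The passing members are Pcdhb20 and Pcdhgc4 in the cerebellum and Pcdhgc5 in the dorsal hippocampus, and the lines are longest in the cerebellum.

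An F test over all 48 libraries asked whether the label difference varied between regions, and 3 of 55 members passed, or 5.45% against 7.79% of 19183 genes. They were Pcdhb20 (adjusted p = 0.0200), Pcdhga11 (adjusted p = 0.0334) and Pcdhgc4 (adjusted p = 0.0387). Pcdhb20 had a label difference of 0.46 in the cerebellum and of 0.04, 0.00 and -0.05 in the dorsal hippocampus, ventral hippocampus and prefrontal cortex. For Pcdhga11 these were 0.41, -0.19, -0.11 and -0.01, and for Pcdhgc4 -0.37, 0.17, -0.11 and 0.07. Without the cerebellum 0 members passed, and without the 8 libraries with unusual granule markers also 0.

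For female against male, 0 members passed in any region with edgeR as fitted region by region with its filter (other settings called up to 4), while 0.0393%, 0.0575%, 0.0345% and 0.105% of all genes were called in the cerebellum, dorsal hippocampus, ventral hippocampus and prefrontal cortex. Before adjustment, 4, 7, 10 and 7 members had a p under 0.05 in the same order, and DESeq2 called 0, 0, 2 and 0. Shares of all genes before adjustment are not given, so the unadjusted counts are not read as a result about the members. The smallest p values were those of Pcdhgc4 (0.38, adjusted p = 0.262) and Pcdhb3 (0.42, adjusted p = 0.262) in the cerebellum, Pcdhb6 (0.43, adjusted p = 0.334) and Pcdhac2 (-0.25, adjusted p = 0.603) in the dorsal hippocampus, Pcdhb14 (-0.43, adjusted p = 0.164) and Pcdhgb6 (-0.52, adjusted p = 0.167) in the ventral hippocampus, and Pcdha8 (1.08, adjusted p = 0.352) and Pcdhb8 (0.51, adjusted p = 0.371) in the prefrontal cortex, as log2 changes of female against male.

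The sex by label difference likewise gave 0 calls in each region with these settings (others called up to 2), against 1.61% of all genes in the prefrontal cortex and 0% in the other regions. Unadjusted, 7, 6, 2 and 6 members were under 0.05 in the cerebellum, dorsal hippocampus, ventral hippocampus and prefrontal cortex, and DESeq2 called 0, 2, 0 and 0. Here too the unadjusted counts have no share of all genes beside them. In the prefrontal cortex the smallest p values belonged to Pcdhac1, with a difference of 1.02 (SE 0.28, adjusted p = 0.0764), and Pcdhga8 with 0.84 (SE 0.24, adjusted p = 0.0805). Pcdhac1 had 4.23, 4.28 and 4.13 CPM in female and 2.36, 3.62 and 2.37 CPM in male KO-labelled prefrontal libraries, and 3.8, 4.35 and 3.48 CPM in female and 4.58, 5.12 and 6.08 CPM in male WT-labelled ones. In males the labels did not overlap and in females they did. Elsewhere the smallest p values were those of Pcdhga5 (-0.73, adjusted p = 0.312) and Pcdhgb2 (-0.97, adjusted p = 0.332) in the cerebellum, Pcdha6 (1.15, adjusted p = 0.157) and Pcdhgc5 in the dorsal hippocampus, and Pcdhgb5 (0.67) and Pcdhga9 (0.52), both at an adjusted p of 0.953, in the ventral hippocampus.

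Related and neighbouring genes are read against the same background, 66.3% of all genes called between cerebellum and forebrain, 34.9% higher and 31.4% lower, and 7.98% and 0.655% called between the labels in the cerebellum and the dorsal hippocampus. Of 12 nonclustered protocadherins, 9 were called between cerebellum and forebrain, 7 lower and 2 higher, with a median log2 change of -0.44. Pcdh1, Pcdh10 and Pcdh20 were at -1.30, -0.85 and -1.13, and Pcdh12, known from blood vessels, and Pcdh18 at 1.00 and 0.48. Of 19 classical and type II cadherins 16 were called, 8 each way, with a median of 0.03, among them Cdh11 at -1.39 and Cdh4 at 0.92. Between the labels in the cerebellum 3 nonclustered protocadherins were lower, Pcdh9 at -0.41, Pcdh10 at -0.92 and Pcdh17 at -0.79, with adjusted p of 0.0427, 0.0480 and 0.0481. The granule, Purkinje and oligodendrocyte marker shifts given above lie between the same libraries, and their part in these changes was not tested.

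Of 27 genes that act on protocadherin promoters, including the insulator protein gene Ctcf, cohesin subunits and DNA methylation enzymes, 19 differed between cerebellum and forebrain, 16 of them higher in the cerebellum, with a median log2 change of 0.12. Tet1, which oxidises methylcytosine, was at 0.86, the cohesin subunit gene Smc1a at 0.35 and the methyltransferase gene Dnmt3a at 0.36, while the histone methyltransferase gene Ehmt2 was at -0.51. In the prefrontal cortex against the hippocampus 6 were lower and 1 higher, where 17.9% of all genes were lower and 15.9% higher. Among the 6, the cohesin genes Stag2, Smc3 and Stag1 were at -0.20, -0.21 and -0.27. Between the labels 1 of 27 passed in the cerebellum, Wiz at 0.56 (adjusted p = 0.0495), and 0 in each other region with edgeR, where 4, 0 and 6 were under an unadjusted p of 0.05 in the dorsal hippocampus, ventral hippocampus and prefrontal cortex. No share of all genes is given for the unadjusted counts.

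Of 25 partners of protocadherin signalling 17 were lower and 3 higher in the cerebellum, with a median of -0.24. Wasf1 and Brk1, subunits of the WAVE complex that binds the cytoplasmic tails of protocadherins, were at -1.66 and -0.87, and Ptk2, the kinase FAK, at -0.98, while the receptor gene Ret was at 2.60. Between the labels in the dorsal hippocampus 3 were lower, Nlgn1 at -0.25, Ptk2b at -0.52 and Wasf1 at -0.28, with adjusted p of 0.0133, 0.0147 and 0.0171. The lower excitatory neuron and dentate gyrus markers given above lie between the same dorsal libraries, and their part in these changes was not tested. Of 21 genes that flank or lie between the clusters, 11 were called between cerebellum and forebrain, 5 higher and 6 lower, with a median of 0.03. Taf7, which lies between the beta and gamma clusters, was at 0.62 and Diaph1, beyond the gamma cluster, at -0.47.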

How the data were processed

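The authors deposited raw counts per gene for all 48 libraries, per the file headers, with a length and mm39 coordinates for each gene. Per the submitters' processing notes, HISAT2 2.0.5, mm39 and DESeq2 were used. The counting tool, strand setting, handling of multiply mapping reads and annotation release are not given in the sources used here, so members that share exons or face antisense exons are uncertain. The labels' protocol speaks of liver lysates although the samples are brain.

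The tests were run in edgeR 4.0.16 under R 4.3.3 (TMM factors, filterByExpr with a minimum count of 10 and a minimum total of 15, quasi-likelihood F test) over all genes, with Benjamini-Hochberg adjustment over all genes tested and a threshold of 0.05 on the adjusted p. Label and sex were tested region by region, with a mean for each of its 4 groups. Comparisons between regions used all 48 libraries with 16 group means. The SE of a log2 change is its size divided by the square root of F. CPM values use TMM scaling over the 48 libraries. Counts of genes at an unadjusted p under 0.05 are given without the share of all genes at that threshold. Exon sharing was read from GENCODE M21 by gene ID. Correlations with granule markers, on log2(CPM + 1), used 100000 permutations and were adjusted over all genes tested in the cerebellum other than the 12 markers. DESeq2 1.42.0 and the other alternatives are in the closing section. The procedure was tested on simulated data.

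The members and lists were chosen with earlier results of these data known. Named genes were the 5 C-type members, the 3 highest and 2 lowest members of each cluster, up to 6 called members each way per comparison with the smallest p (the 2 with the smallest p where none was called), up to 3 called genes each way per other list, and members that an overlap or reversal required. Not each gene that the rule for the other lists covers is printed. No 2 of the 48 pairs of libraries within groups were copies (lowest chi-square per degree of freedom 3.73). The series' design text calls the replicates biological but the labels name no animals, so p-values measure the spread between these libraries. No sequences are printed.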

Additional observations from a re-analysis of the deposited data

Results flagged for a closer look

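Ventral hippocampal male KO library 3 stood apart from the other 5 KO-labelled ventral libraries in 2 of the C-type members. Its Pcdhgc3 level was 58.7 CPM, against 27.3 to 32.8 CPM in the others, and its Pcdhgc5 level was 33.6 CPM, against 65.4 to 82.2 CPM. The gap to the nearest library was 0.826 and 0.654 of the whole range, above Dixon's critical value. In all, 40 sets of 6 libraries were examined and 2 had a library apart, and chance marks about 1 set in 20. The same library had 4381 CPM of granule cell markers, against 420 to 860 CPM in the other KO-labelled ventral libraries. Whether its makeup accounts for the values was not tested.

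The difference between the labels was not the same in each region for Pcdhb20 (adjusted p = 0.0200), Pcdhga11 (adjusted p = 0.0334) and Pcdhgc4 (adjusted p = 0.0387) in the F test of edgeR over all 48 libraries. In the cerebellum their differences were 0.46, 0.41 and -0.37 on the log2 scale, and none of the 3 passed without the cerebellum or without the 8 libraries with unusual granule markers.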

How the results depend on the processing

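Between regions, counts of called members stayed within 1.5 times of the reported 32, 20 and 6 under DESeq2, RLE size factors, both filters, the replicate block, the removal of the 8 libraries and the removal of any single library (28 to 32, 15 to 21 and 5 to 8). Cut to the WT-labelled libraries they were 20, 9 and 2, and to the KO-labelled libraries 26, 10 and 0, with fewer samples in each. Shares of all genes called under the other settings are not given in this section. Whether the member counts moved apart from those of all genes was not tested. In the KO-labelled libraries Pcdhga11 and Pcdhga12 turned from lower to slightly higher in the cerebellum, at 0.048 and 0.016.

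For KO against WT in the cerebellum the count of 2 became 10 in a model of all 48 libraries, 6 with DESeq2, 1 with the replicate block, 0 with the granule covariate, 0 without the 3 doubted libraries and 0 to 12 with 1 library left out. In the dorsal hippocampus the count of 1 became 0 in the model of all 48 libraries and was 1 with any library left out. In the prefrontal cortex it was 1 without a filter on low counts. For the label difference between regions the count of 3 became 1 without that filter, 2 with the replicate block, 4 with DESeq2, 0 without the cerebellum, 0 without the 8 libraries and 0 to 9 with 1 library left out. It moved for 10 of the 48 libraries: it was 0 without cerebellar female KO 1, female WT 3, male KO 1, male WT 2 or male WT 3, 1 without cerebellar female WT 1, cerebellar male KO 3 or dorsal female WT 3, 5 without cerebellar female KO 3 and 9 without cerebellar male WT 1.

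For female against male the counts of 0 became 2 (cerebellum) and 4 (ventral hippocampus) in the model of all 48 libraries, 2 (dorsal and ventral hippocampus) without a filter and 2 (ventral hippocampus) with DESeq2. Leaving out 1 library gave 0 to 1 in the cerebellum (1 without male WT 3) and 0 to 3 in the ventral hippocampus (3 without male WT 3). For sex by label they became 2 in the dorsal hippocampus with DESeq2 and 2 without a filter, 2 in the prefrontal cortex without a filter, and 0 to 1 there with 1 library left out (1 without female WT 1 or male KO 1). The cause of these changes was not tested.

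Same-numbered libraries of a region did not deviate together throughout: 25 of 72 pairs had a correlation over 0.1 (-0.72 to 0.71, median 0.02). Across regions, with the same sex and label, 27 of 72 did (-0.47 to 0.58, median 0.07). Pairs of female WT 1 libraries ran from 0.17 to 0.34 across regions, and those of male KO 1 from -0.47 to 0.20. Whether such libraries share an animal could not be told from the labels, and the tests other than the block treated them as separate. The numbers were not taken to pair samples, and the block changed no count by over 1.5 times other than that of the cerebellum. The covariate, the removal of doubted libraries and the test without the cerebellum were chosen after seeing the data. Without the doubted libraries the male WT groups of the cerebellum and the ventral hippocampus keep 1 library, which is assumed to vary like the others. Counts of members under 10 per library limit Pcdha4, Pcdha11 and Pcdhga10.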
